A study of Homo sapiens with 12 samples.

Results

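The line labelled APEX-NLS was set against the line labelled APEX-NES, both made from Huh-7.5, a cell line established from a human liver cancer. All 8 libraries labelled with these lines were taken, 4 of the NLS line and 4 of the NES line, out of 12 in the series, and treatment entered the fit as an additive term. Each line had 2 mock-treated libraries and 2 from cells given sodium arsenite (0.5 mM, 45 minutes), and all cells carried an APEX construct. The other 4 libraries came from a line labelled APEX-G3BP1 and were used here only as a description. The sources used here do not give whether a line is a single clone, which promoter drives the construct, or whether replicates came from separate cultures. P-values therefore measure the spread between these libraries, which may be technical. The construct and any other difference between the lines cannot be told apart.

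APEX2 is an engineered peroxidase that tags molecules near it in living cells. A nuclear localization signal sends the protein it is fused to into the nucleus through importins, and a nuclear export signal sends it out to the cytoplasm through an exportin. Arsenite is a cell stressor that blocks translation and makes cells form stress granules. The libraries held RNA of whole cells depleted of ribosomal RNA, so the comparison describes total RNA of the lines and not RNA tagged by APEX2.

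Library totals were 1316910 ± 111721 counts in the NES line and 1327470 ± 92866 in the NLS line (SD, n = 4 each, two-sided exact permutation test, p = 0.914), and a floor of 3 counts in a library was between 2.13 and 2.73 CPM, the unit of counts on scaled library totals. Hepatocyte marker rows summed to 163 to 261 counts per NES library and 166 to 293 per NLS library, with none of the 8 at 0 in all libraries and APOB the largest. Leukocyte, biliary, endothelial and fibroblast marker rows summed to at most 158 counts in any library, and kidney-derived or neural markers to between 79 and 118. The row of G3BP1, the gene of the third construct, had 7, 1, 6 and 9 counts in the NES libraries, 21, 17, 11 and 23 in the NLS libraries and 11 to 21 in the G3BP1 libraries, so it gave no check of the labels.

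A gene name here denotes a row of the deposited count table. Rows whose exons overlap an exon of a gene on the other strand made up 49.7% of the 12728 rows tested and held 72.4% of their counts. Rows of protein-coding genes had a median of 71 counts over the 8 libraries where such a partner was annotated, and 7 where no gene was annotated opposite. Whether the counting took account of strand is not given in the sources used here, so counts in such a row may come from either gene. Counts in a row with no gene annotated opposite may likewise come from either strand. The library kit was directional, and which strand the counts come from was not tested. A row's counts are therefore not to be read as the level of the gene it is named after. Genes annotated opposite are therefore named for many of the rows described.

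The lines differed in many rows. Over both treatments 1581 of 12728 rows were called by edgeR's quasi-likelihood test at a Benjamini-Hochberg adjusted p under 0.05, which is 12.4% of the rows. Of these, 693 rows (5.44%) were higher and 888 (6.98%) were lower in the NLS line, and 330 differed by at least 2-fold, 211 of them higher in NLS. In the mock libraries 949 rows (7.46%) were called, 433 higher (3.4%) and 516 lower (4.05%) in NLS. In the arsenite libraries 747 rows (5.87%) were called, 290 higher (2.28%) and 457 lower (3.59%). Scaling by total counts alone moved the median log2 fold difference of all rows from -0.0028 to 0.042. It turned these splits to 896 higher and 667 lower over both treatments, 566 and 402 in mock, and 376 and 341 in arsenite. The mock count fell to 631 without NES mock replicate 1, to 593 without NES mock replicate 2 and to 537 without NLS mock replicate 1, and the arsenite count fell to 457 without NES arsenite replicate 1. DESeq2 called 711 rows over both treatments, 310 in mock and 201 in arsenite.

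A total of 415 rows, 3.26% of those tested, were called over both treatments and also in mock and in arsenite libraries in one direction, and are named shared differences below. They were 43.7% of the mock calls and 55.6% of the arsenite calls. Of them 172 (1.35%) were higher and 243 (1.91%) were lower in the NLS line, and with scaling by total counts the split was 211 and 198. The higher rows had a median log2 fold difference of 2.16 and the lower rows of -0.57, where the median of all tested rows was -0.0028. At least a 2-fold difference was found in 179 shared rows, 108 higher and 71 lower in NLS. In 354 shared rows all 4 libraries of one line lay above all 4 of the other in CPM, 157 with NLS above and 197 with NES above. Of all tested rows 9.72% did so, 4.56% with NLS above and 5.16% with NES above. Fitting the mock and the arsenite libraries in 2 separate fits that share no library left 292 rows, of which 280 were among the 415, and DESeq2 left 159.

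Most differences kept their sign across the treatments. Of the 949 rows called in mock, 885 had the same sign in arsenite. Of the 747 rows called in arsenite, 700 had the same sign in mock, and of all 12728 rows 8079 had the same sign in both. Of the 1581 rows called over both treatments 1572 did so, but the additive fit favours rows whose treatments agree. Among these 1581 rows, 402 passed in mock alone, 249 in arsenite alone and 515 in neither, which is a matter of the threshold and not a test that the treatments differed. The log2 fold differences in mock and in arsenite correlated with Pearson's r of 0.719 over the 12728 rows and 0.811 over the 6653 rows with a mean of at least 20 CPM. These correlations are across rows, which are not independent replicates. The plot of the mock against the arsenite differences shows the 415 shared rows at the lower left and the upper right.

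**Figure D1:**
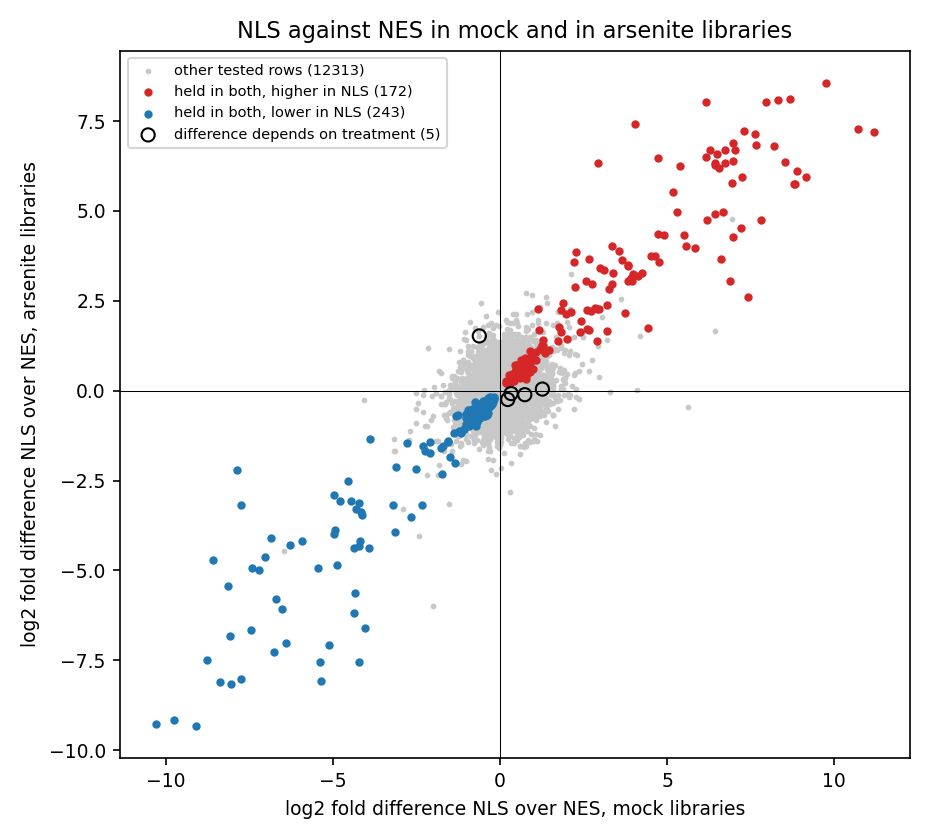
Log2 fold difference of the NLS over the NES line in mock libraries (x axis) and in arsenite libraries (y axis), 1 point per tested row. Red points are the 172 shared differences higher in NLS, blue points the 243 lower in NLS, grey points other rows and open circles the 5 rows whose difference depended on the treatment.

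The largest shared differences were rows with counts in one line and almost none in the other. These rows too were picked among those in which the lines did not overlap. The row of PIKFYVE, a phosphoinositide kinase of endosomes at chr2:208266267-208358751 (GRCh38, plus strand, no gene annotated opposite), had 285 and 292 counts in NLS mock and 170 and 191 in NLS arsenite libraries. It had 0 and 0 in NES mock and 2 and 0 in NES arsenite libraries. All NLS libraries were far above all NES libraries, by a ratio of 453 (95% counting interval 125 to 3745, covering counting error only). CDIN1, a gene mutated in an inherited anaemia, had 218, 197, 202 and 177 counts in the NLS libraries, mock first, against 0, 0, 0 and 2 in the NES libraries, a ratio of 383 (106 to 3171). BICC1, an RNA-binding protein, had 197, 165, 147 and 128 counts against 1, 0, 1 and 1, a ratio of 205 (69.8 to 997). Mock and arsenite libraries of the NLS line were both well above the NES line in all 3 rows.

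Rows with no count at all in the NES line gave lower bounds, computed against a floor of 3 counts over the 4 NES libraries together. KCTD13-DT, the divergent transcript of the ubiquitin ligase adaptor KCTD13 at chr16:29926836-29928933 on the plus strand and opposite to KCTD13, had 98, 115, 48 and 51 counts in the NLS libraries, at least 100.4-fold higher. ARMC3, an armadillo repeat gene, had 48, 54, 31 and 41 counts, at least 56.0-fold higher. RPL7AP64, a ribosomal protein pseudogene, had 41, 38, 28 and 43 counts, at least 48.3-fold higher. The arsenite libraries held fewer KCTD13-DT and ARMC3 counts than the mock libraries of the same line, but none was near the NES level of 0. The unnamed row ENSG00000232031 was at least 41.5-fold higher and TDRD5, a tudor domain gene of the germ line, at least 27.7-fold higher in NLS.

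The NES line had such rows too. VCPKMT, a methyltransferase that modifies the ATPase VCP, at chr14:50108632-50116600 on the minus strand with no gene opposite, had 163 and 154 counts in NES mock and 85 and 64 in NES arsenite libraries. It had 0 in all 4 NLS libraries, at least 161-fold lower. RPLP0P2, a ribosomal protein pseudogene, had 108, 112, 63 and 72 counts in the NES libraries and 0 in the NLS libraries, at least 123-fold lower. RPSAP19, another such pseudogene opposite to LINC01709, had 72, 68, 86 and 67 counts against 0, at least 101-fold lower. MYL1, a myosin light chain of skeletal muscle, had 32, 35, 38 and 30 counts against 0, at least 46.6-fold lower. The long noncoding RNA rows LINC01252 and LINC01689 and the unnamed rows ENSG00000270516 and ENSG00000288881 were at 0 in all NLS libraries, with bounds from 32.8-fold to 53.2-fold. Reads of pseudogenes can be split with near-identical copies, so these rows are uncertain.

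**Figure D2:**
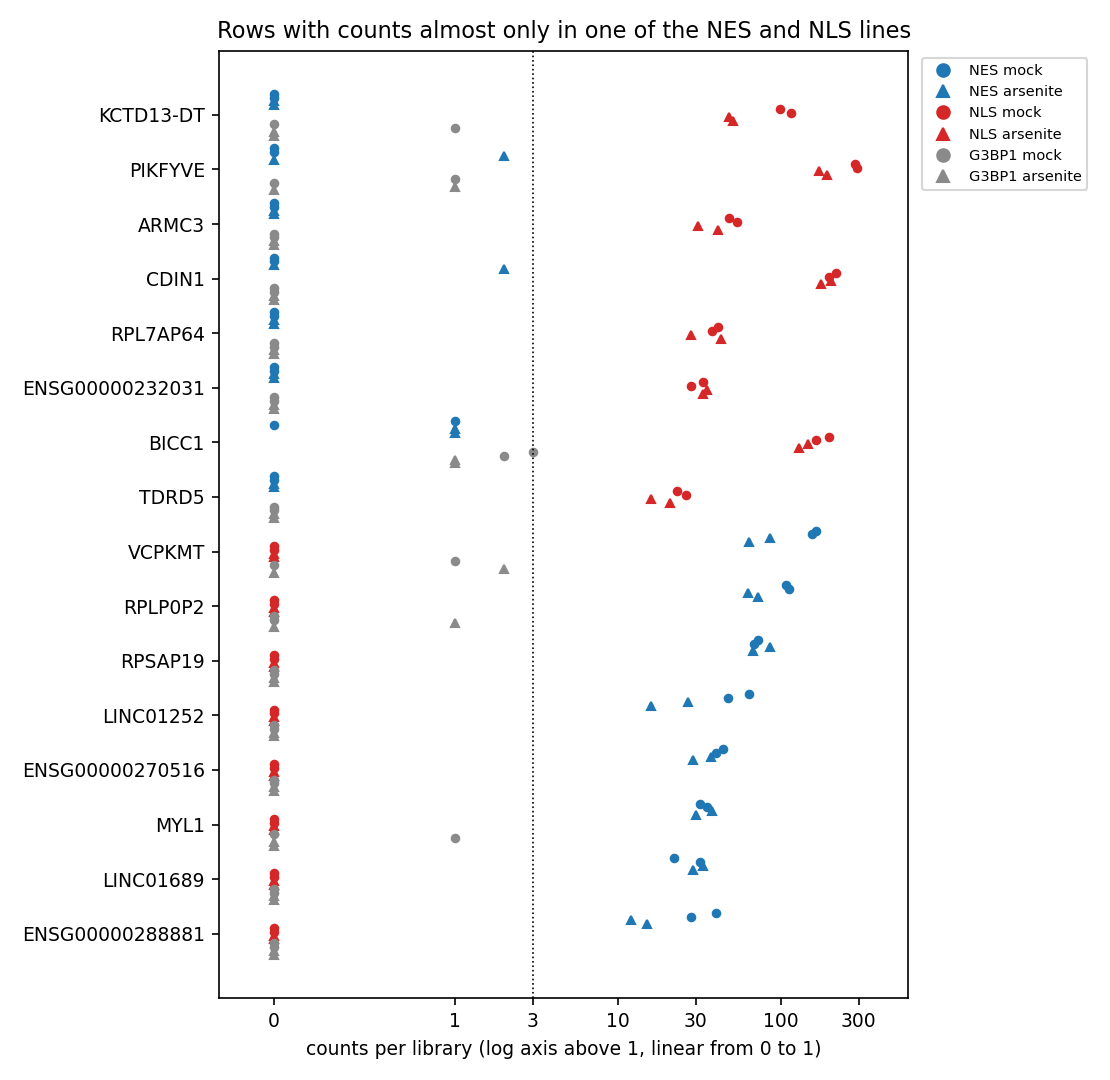
Counts per library on an axis that is logarithmic above 1, for the 8 largest shared differences in each direction, with circles for mock and triangles for arsenite. In each row 1 line lies above the dotted line at 3 counts and the other at or below it, and the G3BP1 libraries (grey) are at 0 to 3 counts.

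In all, 47 shared rows had at most 3 counts over the 4 NES libraries together, and 28 had at most 3 over the 4 NLS libraries. The 47 rows had 41 to 938 counts over the 4 NLS libraries (median 67), and 19 of them were at 0 in the NES line. The 28 rows had 39 to 466 counts over the 4 NES libraries (median 93), and 10 were at 0 in the NLS line. The same rows were low in the third line: 42 of the 47 and 24 of the 28 had at most 3 counts over the 4 G3BP1 libraries, and none had more than 12. They included, higher in NLS, STAU2, an RNA-binding protein of RNA transport granules (212 against 1 count), and RGS10, a regulator of G protein signalling (80 against 0). Higher in NES they included ATF6, a transcription factor of the unfolded protein response (61 against 2 counts), WRN, a DNA helicase (58 against 2), and CASR, the calcium-sensing receptor (39 against 0). These 5 rows were chosen after their values were seen. In RNA from many cells, a transcript at a high level in few cells and one at a low level in all of them cannot be told apart.

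Some rows of this kind lay next to each other. Of the 70 with an annotated position, 18 formed 8 groups of neighbours within 1 Mb, a distance chosen after the values were seen. In all 8 groups the rows had the same direction and strand. Neighbouring rows in general were not counted, and the grouped rows N4BP2L2 and N4BP2L2-IT2 overlap each other. PTH2R, a parathyroid hormone receptor gene at chr2:208359714-208854503, starts 963 bases past the end of PIKFYVE on the same strand, and had 53 counts over the NLS libraries and 0 over the NES libraries. OLFM3, an olfactomedin gene, lies on the same strand as RPSAP19 at a gap of 15355 bases and had 317 counts in NES and 2 in NLS. TDRD5 lay between the rows ENSG00000227141 and ENSG00000243062, with 47, 86 and 44 counts in NLS and 0 in NES for the 3 rows in genome order. MYL1 and LANCL1, a glutathione-binding protein gene, were both on the minus strand of chromosome 2 and both almost without counts in NLS, at 135 against 0 and 175 against 3.

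Shared differences of at least 2-fold also lay beside each other. Their 170 rows with a position in the annotation made 44 neighbouring pairs within 1 Mb, of which 41 had the same direction, 41 the same strand and 39 both. SOS2, an exchange factor of Ras, lies 520 bases from VCPKMT on the same strand and had 729 counts over the NES libraries and 7 over the NLS libraries. POU5F2, a POU domain transcription factor gene, had 1042 against 14 counts, and its neighbour NPM1P27 had 239 against 17. F11R, the junctional adhesion molecule A gene, had 353 against 8 counts, and USF1, a transcription factor gene further along the same strand, had 86 against 8. In the other direction BRIP1, a DNA helicase gene, had 70 counts in NLS and 5 in NES, and INTS2, an Integrator subunit gene 1846 bases away, had 77 and 10. Exceptions were LPGAT1 with NSL1, SLC5A12 with LIN7C, and ENSG00000236634 with PARD3B, whose rows went in opposite directions. Among all 394 shared rows with a position, 117 pairs were within this distance, 95 with the same direction and 89 on the same strand. The shares among neighbouring pairs of all tested rows were not computed. Some pairs were overlapping rows of the same strand, such as F11R with ENSG00000270149, and these are not separate cases.

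Rows counted well in both lines showed smaller differences. They were picked among shared rows in which the lines did not overlap. Both the sharing between treatments and the lack of overlap in them were therefore fixed by the selection. A2M-AS1, at chr12:9065177-9068684 opposite to A2M, the gene of the plasma protease inhibitor alpha-2-macroglobulin, had 77.1, 81.6, 92.9 and 75.5 CPM in the NES libraries, mock first, and 269, 267, 257 and 317 CPM in the NLS libraries. The lines did not overlap and the level differed little between treatments, with a log2 fold difference of 1.76 (SE 0.0826, edgeR adjusted p = 2.12e-40). PPP4R3B, a protein phosphatase regulatory subunit, had 43.8, 49.1, 43.5 and 25.5 CPM in NES and 122.7, 131, 88.8 and 66.0 in NLS libraries. Its lowest NLS library, the second arsenite one, was still above the highest NES library (log2 fold difference 1.31, SE 0.130, edgeR adjusted p = 1.03e-15). PMP2, a myelin fatty acid binding protein, had 25.8 to 32.5 CPM in NES and 71.7 to 75.9 CPM in NLS libraries. SATB1-AS1, annotated opposite to an intron of the chromatin organizer gene SATB1, FAM98A and the olfactory receptor gene OR2AG1 were higher in NLS by 1.07, 0.98 and 1.27 on the log2 scale.

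In the other direction, NR2F2-AS1, annotated opposite to an intron of the nuclear receptor gene NR2F2, had 133.7, 122.8, 88.5 and 108.3 CPM in the NES and 30.3, 44.7, 42.1 and 22.7 CPM in the NLS libraries. No NLS library reached the lowest NES library, and the log2 fold difference was -1.69 (SE 0.132, edgeR adjusted p = 3.50e-22). CDC42SE1, an effector of the small GTPase CDC42 annotated opposite to C1orf56 and MLLT11, had 335, 342, 343 and 383 CPM in NES and 113, 115, 130.1 and 142 CPM in NLS libraries. Its NES libraries were all above 300 CPM and its NLS libraries all below 150, with a log2 fold difference of -1.48 (SE 0.0705, edgeR adjusted p = 5.22e-40). INTS4, an Integrator complex subunit opposite to AAMDC, was lower, with a log2 fold difference of -1.02 over both treatments, -1.31 in mock and -0.69 in arsenite.

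**Figure D3:**
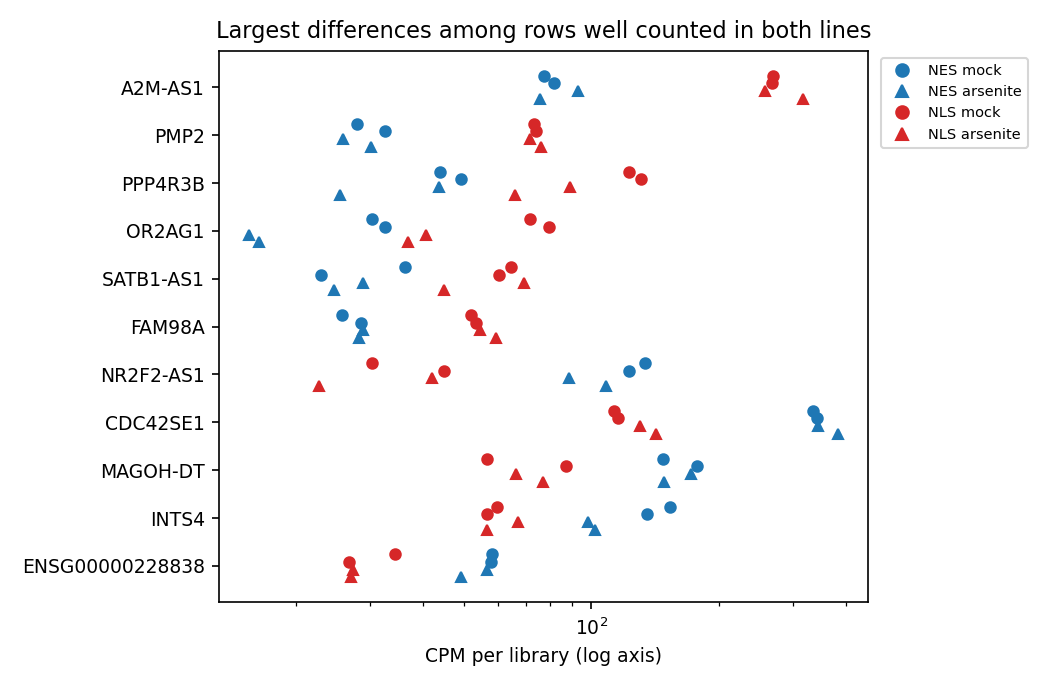
CPM per library on a log axis for 11 rows among the 6 largest shared differences in each direction with a mean of at least 20 CPM in both lines. The NES (blue) and NLS (red) libraries do not overlap in any of the 11 rows, which the selection of these rows required. Circles are mock and triangles arsenite libraries.

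These 11 rows and the 8 largest differences in each direction described before them kept their direction and their call over both treatments under every alternative in which they were tested.

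Some genes had several of their opposite rows among the shared differences. A total of 15 genes had at least 2 shared rows annotated opposite to their exons, and for all 15 the rows went in one direction, lower in NLS for 13 and higher for 2. Rows opposite to one gene can overlap, as ENSG00000269972 and ENSG00000269987 opposite to TUG1 do, so their agreement is not separate. The share among all genes with several tested opposite rows was not computed. LRP8, a lipoprotein receptor of the LDL receptor family, had MAGOH-DT, which is also opposite to MAGOH, and ENSG00000228838 opposite to it. MAGOH-DT had 147, 177, 172 and 148 CPM in NES and 56.6, 87.1, 66.2 and 76.7 CPM in NLS libraries, and ENSG00000228838 had 49.1 to 58.2 CPM in NES and 26.7 to 34.3 CPM in NLS libraries. Both rows were lower in every NLS library, with log2 fold differences of -1.17 and -0.95. The 3 rows opposite to PIEZO1, a mechanically gated cation channel, had log2 fold differences of -0.58, -0.54 and -0.65, and the 2 rows opposite to ACAT2, a cytosolic thiolase of sterol synthesis, of -0.37 and -0.33. These genes were found after the values were seen.

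Of 13 tested rows opposite to genes of cholesterol synthesis and uptake, 8 were lower in the NLS line. Cholesterol is made from acetyl-CoA by a chain of enzymes whose genes are switched on together by SREBP2 when sterols run low, and hepatocytes are a main site of this pathway. None of the other 5 rows opposite to an exon of a listed gene was called, where 9.23% of all rows with an opposite exon were called lower, and 23.2% of such rows averaging 100 CPM or more. The median log2 fold difference of the 13 rows was -0.23, against -0.0138 for all rows with an opposite exon and -0.0557 for those of at least 100 CPM. Of the 8 called rows, 5 were shared between mock and arsenite. All 8 were also called lower with DESeq2 size factors and with total counts, and DESeq2's own test called 6.

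By step of the pathway, ENSG00000261604, opposite to HMGCS1, the synthase at the entry of the pathway, had 2323, 2207, 2448 and 2415 CPM in NES and 1886, 1949, 1970 and 2033 CPM in NLS libraries. The lines did not overlap (log2 fold difference -0.26, SE 0.0402, edgeR adjusted p = 1.07e-07).

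IDI2-AS1, at chr10:1022666-1044201 opposite to the isomerase genes IDI1 and IDI2, had 420, 372, 504 and 494 CPM in NES and 273, 244, 355 and 358 CPM in NLS libraries. Arsenite libraries were higher than mock libraries in both lines, and the lines did not overlap (-0.55, SE 0.0577, edgeR adjusted p = 2.89e-14). The 21 tested rows from 0 to 10 Mb of chromosome 10, where IDI2-AS1 lies, had a median of -0.195. The part of this in IDI2-AS1 was not tested. The 10 Mb windows that hold the rows opposite to HMGCS1 and FDPS had medians of 0.158 and 0.019. RUSC1-AS1, opposite to RUSC1 and to the farnesyl diphosphate synthase gene FDPS, had 2410, 2502, 2461 and 2608 CPM in NES and 1900, 1953, 1959 and 2118 CPM in NLS libraries. The highest NLS library was below the lowest NES library (-0.33, SE 0.0405, edgeR adjusted p = 2.45e-11). ENSG00000223901, at chr21:46220269-46225364 opposite to the lanosterol synthase gene LSS, had 477, 446, 380 and 399 CPM in NES and 242, 271, 263 and 236 CPM in NLS libraries (-0.75, SE 0.0604, edgeR adjusted p = 4.09e-21). It had the largest difference of the 13 rows and lies on chromosome 21, whose rows were lower in NLS in general, as described below.

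A further row opposite to LSS, ENSG00000228404, differed by -0.56, a call lost without the first arsenite library of either line. STARD4-AS1, opposite to NREP and the sterol carrier gene STARD4, differed by -0.23. The 5 rows that were not called lay between -0.10 and 0.088. The listed genes' own rows gave no such pattern: of 18 tested, 1 was called, higher in NLS and not by DESeq2, and their median was 0.062.

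**Figure D4:**
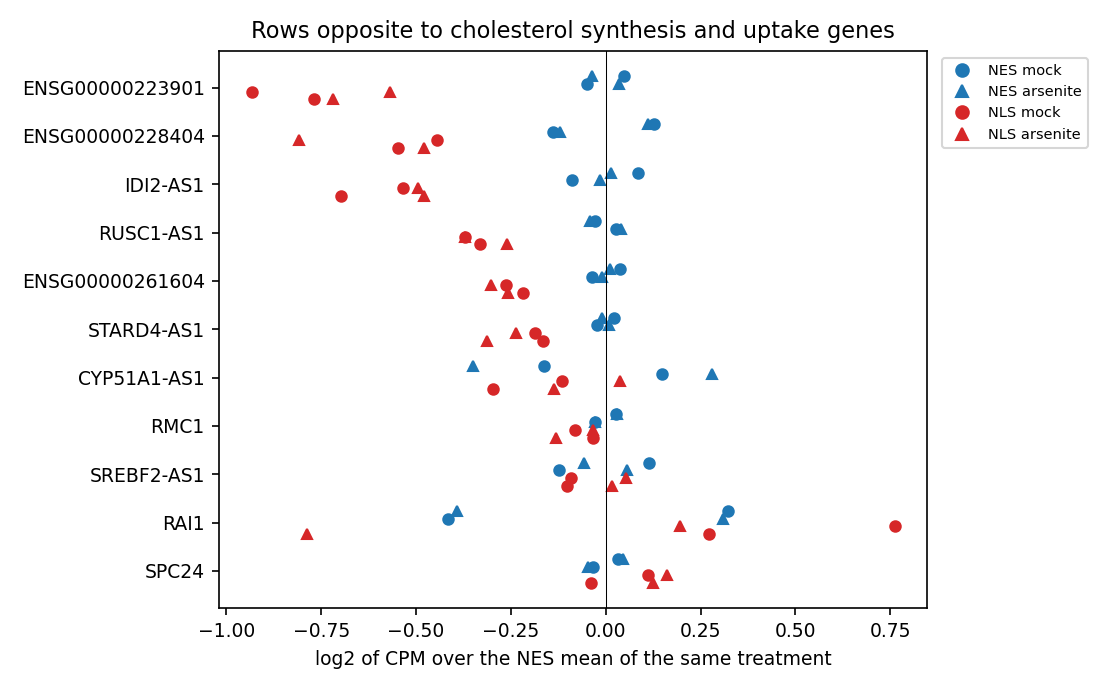
Log2 of the CPM in each library over the NES mean of the same treatment, for 11 of the 13 tested rows opposite to exons of cholesterol synthesis and uptake genes, ordered by difference. In the upper 6 rows the NLS libraries (red) lie left of the NES mean at 0, in mock (circles) and in arsenite (triangles).

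The promoters of 4 of these genes are shown because the rows opposite to them moved together. Each run is the 250 bases before the RefSeq start (GRCh38.p14), 5' to 3' on the gene's strand, with capitals marking CCAAT or its reverse complement ATTGG, the box bound by NF-Y, a known partner of SREBP2. They cover chr21:46228775-46229024 (minus strand) for LSS, chr1:155308616-155308865 (plus) for FDPS, chr5:43313413-43313662 (minus) for HMGCS1 and chr10:1056705-1056954 (minus) for IDI1.
LSS: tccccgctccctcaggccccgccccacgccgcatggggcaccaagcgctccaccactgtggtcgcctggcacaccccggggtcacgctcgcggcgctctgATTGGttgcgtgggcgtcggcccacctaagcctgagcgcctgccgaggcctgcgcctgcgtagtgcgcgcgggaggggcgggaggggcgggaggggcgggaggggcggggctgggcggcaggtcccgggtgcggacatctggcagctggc
FDPS: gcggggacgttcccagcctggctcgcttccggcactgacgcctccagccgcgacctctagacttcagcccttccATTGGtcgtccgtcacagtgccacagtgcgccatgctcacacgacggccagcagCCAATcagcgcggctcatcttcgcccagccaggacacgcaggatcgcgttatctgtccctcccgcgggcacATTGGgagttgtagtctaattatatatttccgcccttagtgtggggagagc
HMGCS1: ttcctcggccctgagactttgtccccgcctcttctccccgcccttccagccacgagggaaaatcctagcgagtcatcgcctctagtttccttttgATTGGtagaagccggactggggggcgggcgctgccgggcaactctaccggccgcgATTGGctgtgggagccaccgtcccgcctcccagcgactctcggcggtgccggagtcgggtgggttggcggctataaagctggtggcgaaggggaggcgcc
IDI1: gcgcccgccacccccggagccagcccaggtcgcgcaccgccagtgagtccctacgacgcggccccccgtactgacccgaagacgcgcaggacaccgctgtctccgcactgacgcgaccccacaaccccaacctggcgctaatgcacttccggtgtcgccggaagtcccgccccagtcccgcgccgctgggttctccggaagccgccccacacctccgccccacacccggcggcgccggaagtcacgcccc
The box was found in 16 of the 24 listed genes present in the promoter table, and in 32.0% of all 35116 promoters of the same length, both strands searched. LSS holds 1 box, FDPS 3, HMGCS1 2 and IDI1 none. The letters TCACNCCAC, a form of the sterol regulatory element, were found on either strand in 1 of the 24 genes and in 0.883% of all promoters, and in none of the 4 shown. A match or its absence in this window is a description of the letters alone.

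Adhesion and cytoskeleton genes had shared differences in both directions. KRT8, an intermediate filament protein of simple epithelia opposite to its partner KRT18, had 4421, 4475, 5020 and 5298 CPM in NES and 2942, 3212, 3694 and 4092 CPM in NLS libraries. Arsenite libraries were higher in both lines and the lines did not overlap (log2 fold difference -0.47, SE 0.0399, edgeR adjusted p = 1.35e-19). LAMB1, a laminin chain opposite to the dehydrogenase gene DLD, had 233, 222, 254 and 227 CPM in NES and 344, 301, 414 and 376 CPM in NLS libraries, and was higher in all of them (0.61, SE 0.0634, edgeR adjusted p = 1.28e-14). LAMA5, another laminin chain opposite to ADRM1 and LAMA5-AS1, was lower at -0.36, and F11R at -5.38, from 37.6 to 104.3 CPM in NES and 0.710 to 3.12 CPM in NLS libraries. Of the 17 tested own rows of the list, 1 was called higher and 4 lower, against 5.44% and 6.98% of all tested rows.

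Rows opposite to genes of the adhesion list were called lower in 8 of 14 and higher in none, with a median of -0.24. Among all rows with an opposite exon 9.23% were called lower, and 23.2% of those averaging 100 CPM or more, with medians of -0.0138 and -0.0557. With total counts 6 were called and with DESeq2's test 4, all of them lower. They included 2 rows opposite to VIM, the mesenchymal intermediate filament gene: ENSG00000234961 with 2680, 2800, 2982 and 3209 CPM in NES and 2192, 2263, 2568 and 2852 CPM in NLS libraries (-0.24, SE 0.0406, edgeR adjusted p = 8.84e-07), and VIM-AS1 at -0.23. The 31 tested rows of the window from 10 to 20 Mb of chromosome 10, where VIM lies, had a median of -0.23, and the part of this in the VIM rows was not tested. In ENSG00000234961 each NLS library was below the NES libraries of its treatment, and this row was shared between treatments.

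Rows of, or opposite to, heat shock, integrated stress and oxidative stress genes included 2 shared differences. MRNIP, a DNA repair factor gene opposite to the autophagy receptor gene SQSTM1, had 1642, 1742, 2003 and 2064 CPM in NES and 1109, 1174, 1396 and 1473 CPM in NLS libraries. It was lower in every NLS library, in mock and in arsenite alike (-0.53, SE 0.0421, edgeR adjusted p = 7.40e-22). ENSG00000225420, opposite to EIF2AK3, the endoplasmic reticulum stress kinase, differed by -0.40 and was also shared. SLC7A11-AS1, opposite to the cystine transporter gene SLC7A11, differed by -0.71 over both treatments. NFE2L2, the oxidative stress transcription factor opposite to AGPS, had 2620 to 2935 CPM in NES and 2324 to 2486 CPM in NLS libraries (-0.19, edgeR adjusted p = 0.000112). Of 16 tested rows opposite to stress genes 4 were called, all lower (median of the 16 -0.068). Of all rows with an opposite exon 9.23% were called lower, and 23.2% of those averaging 100 CPM or more. Of 15 own rows NFE2L2 alone was called, where 12.4% of all rows were, and with total counts 1 own row was called higher and 1 lower.

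Stress granule genes included the third construct's gene. The G3BP1 row, opposite to the copper chaperone gene ATOX1, was higher in NLS by 1.57 (SE 0.349, edgeR adjusted p = 0.000364), at 23 counts or fewer per library. It was called in mock (2.25) but not in arsenite (1.03, edgeR adjusted p = 0.206). STAU2 had 28.8 to 51.8 CPM in the NLS libraries and 1 count over the 4 NES libraries, and was shared. Of 13 tested own rows these 2 were called, where 12.4% of all tested rows were, and the median was -0.014. Of 11 tested opposite rows 1 was called higher and 1 lower, neither shared, where 5.98% and 9.23% of rows with an opposite exon were.

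Nuclear transport genes, which handle the 2 signals that tell the constructs apart, had no called row among 11 tested own rows. Of 13 opposite rows 3 were lower, where 9.23% of all rows with an opposite exon were and 23.2% of those averaging 100 CPM or more. They were 2 opposite to the nucleoporin gene NUP214 (ENSG00000236986 at -0.29 and ENSG00000246851 at -0.34), and WDR5B-DT opposite to the importin gene KPNA1 at -0.15, a call lost without NES arsenite replicate 2 or NLS mock replicate 2. The NUP214 rows lie on chromosome 9. None of the 3 was shared between the treatments, and DESeq2's test called 1 of them.

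The remaining lists held few shared differences. Of nuclear long noncoding RNA genes, 2 rows opposite to TUG1 were shared: ENSG00000269972 had 291 to 311 CPM in NES and 216 to 240.1 CPM in NLS libraries (-0.40), and ENSG00000269987 494 to 537 and 376 to 443 CPM (-0.36). These 2 were the only ones called of 26 tested opposite rows, where 9.23% of all rows with an opposite exon were called lower. Of 20 tested own rows 2 were called higher and 1 lower. TUG1's own row, at 10.99 CPM or less in every library, was higher in NLS by 2.04, a call lost without NES mock replicate 1. Liver genes had 3 called opposite rows of 8, 1 higher and 2 lower, and 2 called own rows of 23, HNF4A, a master hepatocyte transcription factor, at -0.72 and CYP3A4, a drug-metabolizing enzyme, at 1.16. DESeq2 called neither. The HNF4A call was lost without NES mock replicate 1, NES arsenite replicate 2, or the second NLS library of either treatment, and the CYP3A4 call without the first library of any group. Of all tested rows 12.4% were called. Replication genes had 2 called own rows of 14, 1 higher and 1 lower, and mitosis 1 of 11, higher. Of p53 targets 3 of 8 were called, SESN1 and DDB2 higher (1.03 and 0.40) and XPC lower (-0.68). Interferon genes had 2 of 11, 1 higher and 1 lower. Of rows opposite to these genes, 4 of 17 were called lower for replication and 2 of 10 higher for mitosis. For p53 targets 1 of 11 was called lower, and for interferon genes 1 of 9. Of all rows with an opposite exon 5.98% were called higher and 9.23% lower. Among those averaging 100 CPM or more the shares were 9.05% and 23.2%. No row of these 4 lists was shared. SESN1, a p53 target that restrains growth signalling, was the clearest of them, at 15.1 to 19.01 CPM in NES and 26.5 to 47.8 CPM in NLS libraries (1.03, SE 0.192, edgeR adjusted p = 1.30e-05). Of the 15 mitochondrially encoded rows 5 were called, 1 higher and 4 lower, none shared and none called by DESeq2, and with total counts 1 was higher and 2 were lower.

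Differences also ran along chromosomes. Of 484 tested rows on chromosome 15, 74 were called higher and 10 lower in NLS, 73.3% lay above 0, and the median log2 fold difference was 0.17 over both treatments, 0.16 in mock and 0.17 in arsenite. Chromosome 14 had a median of 0.17, with 50 rows higher and 14 lower of 411. On chromosome 21 the median was -0.24, with -0.25 in mock and -0.22 in arsenite, and 1 row was called higher and 22 lower of 129. On chromosome 9 it was -0.17, with 9 rows higher and 65 lower of 442, and on chromosome 13 it was -0.12, with 4 and 22 of 192. The median of all rows was -0.0028.

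These differences were spread over the chromosomes. Windows of 10 Mb with at least 20 rows had medians above 0 in 7 of 7 on chromosome 14 and 7 of 7 on chromosome 15, and in none of 7 on chromosome 9, none of 9 on chromosome 17 and none of 2 on chromosome 21. Each library's chromosome level was taken over rows with a mean of at least 20 CPM, as the median of log2(CPM + 1) minus the row's mean over the 8 libraries. On chromosome 15 it was between -0.088 and -0.055 in the 4 NES libraries and between 0.064 and 0.11 in the 4 NLS libraries. On chromosome 21 it was between 0.071 and 0.21 in NES and between -0.19 and -0.12 in NLS. The lines did not overlap on 10 of 24 chromosomes, which reaches the smallest p that a two-sided exact permutation test of 4 against 4 can give (0.0286, Benjamini-Hochberg adjusted 0.0686 over 24 chromosomes), so no chromosome passed 0.05 after adjustment. The median log2 fold differences over all tested rows kept their signs for 8 of these 10, chromosomes 9, 10, 11, 13, 14, 15, 17 and 21. This held under total counts, DESeq2 size factors and leaving out each library in turn. Total counts brought chromosome 10 from -0.077 to -0.032, chromosome 11 from -0.072 to -0.027, chromosome 13 from -0.12 to -0.078 and chromosome 17 from -0.059 to -0.014. The other 2, chromosomes 4 and 12, had such medians of 0.0075 and -0.0030, and that of chromosome 12 turned to 0.041 with total counts. Over rows of at least 20 CPM, which set the chromosome level, their medians were -0.021 and -0.034.

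**Figure D5:**
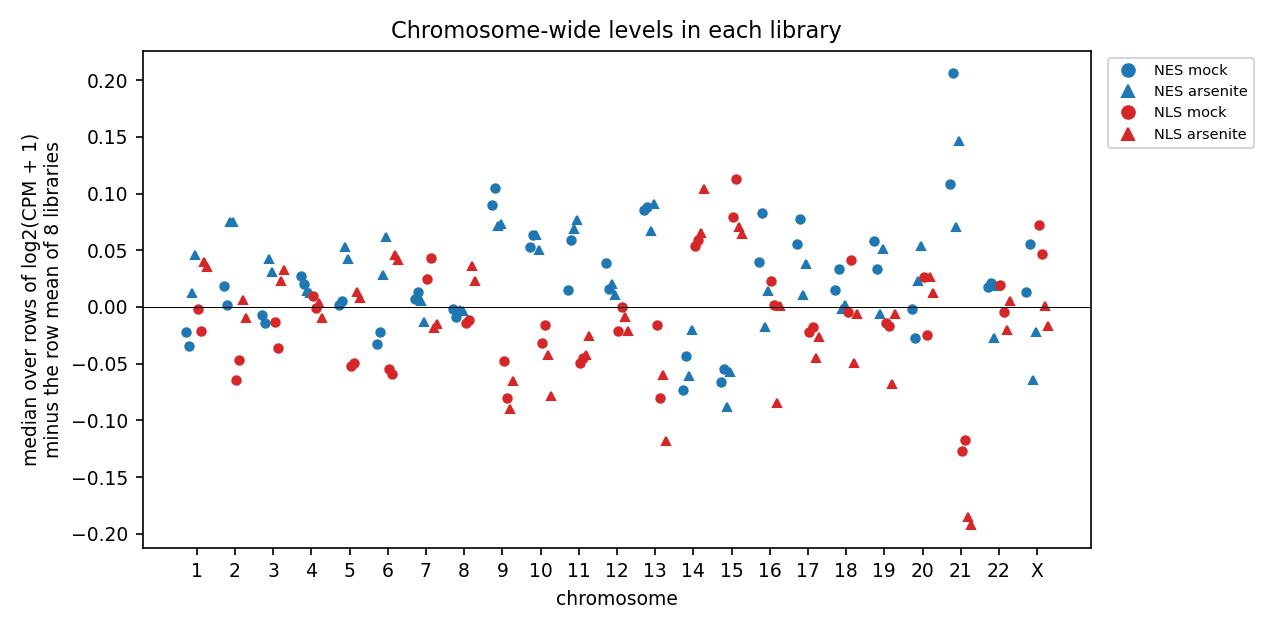
Chromosome level of each library, for chromosomes 1 to 22 and X. It is the median, over rows with a mean of at least 20 CPM, of log2(CPM + 1) minus the row mean of 8 libraries. On chromosomes 14 and 15 the NLS libraries (red) lie above 0 and the NES libraries (blue) below, and on chromosomes 9, 13 and 21 the order is turned.

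The third line was nearer to NES than to NLS for most shared rows, and often lay beyond both. Of the 172 rows higher in NLS, the mean log2(CPM + 1) of the G3BP1 line was closer to NES in 158 and closer to NLS in 14. Of the 243 rows lower in NLS it was closer to NES in 164 and to NLS in 79. It lay below both lines in 90 and above both in 8 of the 172, and above both in 124 and below both in 34 of the 243. These counts describe the 4 G3BP1 libraries and carry no test. The rows were selected for a difference between NES and NLS, which can by itself place another line nearer to either. The same counts over all tested rows were not made.

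Few rows showed a line difference that depended on the treatment. The difference between the arsenite and the mock contrasts was called in 5 rows (0.0393% of those tested), where 878 rows had an unadjusted p under 0.05, and DESeq2 called 0 with 140 at an unadjusted p under 0.05. OSBPL10, an oxysterol-binding protein gene opposite to OSBPL10-AS1, had 103.5 and 98.2 CPM in NES mock and 156 and 181 CPM in NLS mock libraries, but 316 and 294 CPM in NES arsenite and 309 and 258 CPM in NLS arsenite libraries. NLS was higher in mock libraries and the lines overlapped in arsenite libraries, with a difference of -0.85 between the contrasts (SE 0.145, edgeR adjusted p = 0.000200). FEN1, a flap endonuclease of DNA replication opposite to TMEM258, had 34.0 and 29.3 CPM in NES mock and 71.7 and 80.8 CPM in NLS mock libraries, against 94.4 and 118 CPM and 109 and 109 CPM after arsenite. Its difference fell from 1.26 in mock to 0.044 in arsenite, a change of -1.22 (SE 0.242, edgeR adjusted p = 0.00585). The count of such rows depended on single libraries, from 1 without NLS mock replicate 2 to 13 without NES arsenite replicate 2, with 2 without either NES mock replicate, 8 without NLS arsenite replicate 2 and 7 without NLS mock replicate 1. Without NLS mock replicate 2 none of the 5 rows was called, OSBPL10 and FEN1 included, and the 1 called row was another. Of the 13 rows without NES arsenite replicate 2, 4 were among the 5.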

How the data were processed

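RNA of 3 engineered Huh-7.5 lines was sequenced in 12 libraries, and the 8 of the NES and NLS lines were compared. Trizol-extracted RNA was depleted of ribosomal RNA and made into libraries with a directional kit, per the labels' protocols. A single table deposited by the authors holds unnormalized counts in 61255 gene rows. The submitters' processing notes name Trim Galore, Subread, featureCounts and edgeR and the build GRCh38.p13. Versions, roles, annotation release and strand setting are not given in the sources used here. Of the 16 sample columns, 12 matched a sample title and 4 matched none and were not used. Groups came from the titles and the labels of genotype and treatment, which give no batch or date.

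Genes opposite to a row, types and positions came from GENCODE release 29 (GRCh38), which matched 57020 rows, and promoters from RefSeq (GRCh38.p14). Counts were tested with edgeR 4.0.16 in R 4.3.3: TMM scaling, filterByExpr (minimum count 10, minimum total 15), quasi-likelihood F test, Benjamini-Hochberg adjusted p under 0.05. The additive fit (treatment plus line, 5 residual degrees of freedom) gave the difference over both treatments, and a fit of 4 group means (4 residual degrees of freedom) gave the mock, arsenite and difference contrasts. The code was tested on simulated counts. Alternatives were DESeq2 1.42.0, other scalings, filters, thresholds, replicate blocks, all 12 libraries, each treatment alone and leaving out each library. Leaving out both second arsenite libraries was added after the data were seen.

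Replicates of a group differed beyond sampling noise (chi-square per degree of freedom 1.11 to 1.39), so each library counted as 1 replicate. Totals of 1170783 to 1461067 counts set the precision. Intervals and floors cover counting error only.

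Rows named were the 8 largest shared differences in each direction with a mean of at least 10 CPM in the higher line, the 6 largest in each direction with at least 20 CPM in both, rows whose difference depended on treatment, and up to 4 called rows of each of 12 gene lists plus G3BP1. The first 2 sets required that the lines did not overlap. Other rows named, KRT8, LAMA5, NFE2L2, VIM's opposite rows and the smaller sterol rows among them, were chosen after their values were seen. The comparison, rows and lists were all chosen with earlier results of these data known. A few of the rows so named are not reported here.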

Additional observations from a re-analysis of the deposited data

Results flagged for a closer look

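The difference between the lines depended on the treatment in 5 rows by edgeR's quasi-likelihood test of the arsenite contrast minus the mock contrast, on the log2 scale. It was -0.85 for OSBPL10 (edgeR adjusted p = 0.000200) and -1.22 for FEN1 (0.00585), described above. For TRIM13, opposite to the long noncoding RNA gene DLEU2, it was -0.47 (0.0277): the row had 416, 383, 580.3 and 518 CPM in NES and 454, 483, 484 and 446 CPM in NLS libraries, mock first, and was the only row called in opposite directions in mock and arsenite. For EYS, opposite to PHF3, it was -0.41 (0.0467), with 589 and 622 CPM in NES mock against 773 and 748 in NLS mock, and 709 and 647 against 648 and 639 CPM after arsenite. For RNU6-105P, a small nuclear RNA pseudogene opposite to ZNF638, it was 2.15 (0.0467), at 30 counts or fewer per library and with 10 and 7 counts in NES arsenite libraries. Each of the first 4 rows differed more in favour of NLS in mock than in arsenite libraries, and RNU6-105P the reverse.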

How the results depend on the processing

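DESeq2's test gave 711 rows over both treatments, 310 in mock, 201 in arsenite, 159 shared and 0 for the dependence on treatment. The dependence on treatment was called in 2 rows with no filter, with a filter of 5 CPM, or with all 12 libraries in the fit. Over both treatments an adjusted p under 0.01 left 953 rows and a fold of at least 2 left 330, and a fold of at least 2 in each treatment left 177 shared rows. The arsenite libraries fitted alone gave 421 rows and the mock libraries fitted alone 1148. With both second arsenite libraries left out, 356 rows were called in arsenite, 252 were shared and 8 depended on the treatment; the lone arsenite library of each line is then assumed to vary like the other groups. Leaving out 1 library in turn gave 1300 to 1493 rows over both treatments, 537 to 1042 in mock, 457 to 742 in arsenite, 298 to 357 shared and 1 to 13 for the dependence on treatment. In these fits the group that lost a library has 1, which is assumed to vary like the others. The value over both treatments changed sign for TRIM13, from -0.019 to 0.026 with total counts, 0.069 without NES arsenite replicate 1, 0.0037 without NLS arsenite replicate 1, 0.050 without NLS arsenite replicate 2 and 0.046 without both second arsenite libraries, with a range of -0.089 to 0.069 over single libraries left out. It changed sign for RNU6-105P, to -0.032 without NLS arsenite replicate 1, with a range of -0.032 to 0.56. The cause was not tested, except that fewer samples or rows enter some of these fits. Same-numbered libraries did not deviate together in mock (Pearson's r -0.0045 across 6653 rows) and did in arsenite (0.273), so the numbers were not taken to pair the libraries. With the replicate number as a block common to both treatments, 1614 rows were called over both treatments, 967 in mock, 767 in arsenite, 428 shared and 4 for the dependence on treatment, and a block within treatment gave 1650. Of the 77 rows that the naming rule gave, 73 were called over both treatments. DESeq2's test kept 49 of these calls and lost 24, and either block kept all 73.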

Other observations

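PMP2, described above, and FABP4 are fatty acid binding protein genes 30896 bases apart on chromosome 8, and both were higher in NLS, at 1.34 and 1.38.

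Rows with no gene annotated on the other strand took 10.4% to 10.9% of the counts in the NES libraries and 10.9% to 11.3% in the NLS libraries. The direction of the calls differed by level: among rows with a mean of at least 100 CPM, 9.49% were called higher and 22.4% lower in NLS, and among rows below that 4.73% and 4.25%. These shares are with TMM scaling, and the difference between them was not tested.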
